A study of Mus musculus with 18 samples.

Results

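Messenger RNA levels of the nuclear genes of oxidative phosphorylation were examined across all groups of an RNA-sequencing study of C3H10T1/2 cells, a mesenchymal cell line from mouse embryos. Members were all genes of the deposited tables whose symbol starts with Nduf, Uqcr, Atp5 or Cox4 to Cox8, together with Sdha, Sdhb, Sdhc, Sdhd and Cyc1, which gave 91 of 20325 genes. They comprised 36 complex I subunits, 4 complex I assembly factors, 4 subunits of complex II, 9 of complex III, 12 widespread subunits of complex IV, 8 tissue-restricted isoforms of complex IV subunits (Ndufa4l2 included) and 15 subunits of complex V. The other 3 genes were caught by their names alone. Cox4nb (now Emc8) encodes a subunit of an endoplasmic reticulum insertion complex, and Atp5s (now Dmac2l), known as coupling factor B, has the relative Atp5sl (now Dmac2).

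The study asked how a histone that carries methionine in place of lysine 36 changes mesenchymal progenitor cells, and how this compares with loss of the enzymes that methylate that lysine. Cultured groups at passage 10 to 15 were cells stably expressing FLAG-HA-tagged wild-type H3.3 (n = 2 libraries), the same with H3.3K36M (n = 2) or H3.1K36M (n = 2), parental cells given a scramble siRNA (n = 3), and parental cells given siRNAs against Nsd1, Nsd2 (listed as Whsc1) and Setd2 (n = 3, called HMT siRNA, for histone methyltransferase). The 6 tumor libraries came from subcutaneous grafts of H3.3K36M cells in Matrigel, 2000000 cells per injection, placed in both flanks of athymic female SCID mice aged 6 to 8 weeks and collected after 5 to 6 weeks. The labels do not say whether a line was 1 clone, whether the libraries within 1 group came from different cultures, or whether each tumor had its own mouse, so p-values measure the spread between libraries only. Tumors were sequenced in bulk, with whatever host cells they held.

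Oxidative phosphorylation couples the transfer of electrons along the inner mitochondrial membrane to the making of ATP. Complex I takes electrons from NADH and complex II from succinate; complex III passes them to cytochrome c, complex IV passes them to oxygen, and complex V (ATP synthase) uses the proton gradient that results. The subunits studied here are made from nuclear genes and joined in the mitochondrion with a small set made from mitochondrial DNA. Several complex IV subunits come as a widespread form and a form restricted to tissues such as muscle, lung or testis.

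Signal values were normalised estimated counts from libraries of 13993307 to 56041798 estimated reads. All 7 markers of mesenchyme (among them Col1a1, Col1a2 and Vim) were present in every group, and the 3 targeted methyltransferases were lower with HMT siRNA, by log2 fold changes of -1.52 for Setd2, -0.59 for Whsc1 and -0.52 for Nsd1. The fraction of whole numbers among genes with 1 to 20 estimated reads was 75.6 to 78.0% in 4 libraries, those of H3.3K36M cells and of their wild-type counterpart, and 83.6 to 86.1% in the remaining 14. The comparisons of H3.1K36M cells and of tumors with those 4 libraries cross this difference, which cannot be told apart from the groups. Its source was not tested. Many of these genes have processed pseudogenes in the mouse genome, and how reads were shared with such copies is not given in the sources used here.

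Per kilobase of transcript, so that genes can be set against each other, the order of levels in H3.3 wild-type cells began with Atp5b, the catalytic beta subunit of complex V, at 14904 ± 282 signal units per kb (SD, n = 2). Atp5g2, one of 3 genes for the membrane ring subunit of complex V, followed at 9339 ± 12.9, Cox4i1 of complex IV at 8707 ± 269.5 and Atp5g3, another ring gene, at 8583 ± 219.8 (SD, n = 2 each). Cox4i1 and Atp5g3 were closer to each other than their spread, and so were Atp5o and Atp5a1 further down, at 6146 ± 175 and 6134 ± 115. The low end held the complex I assembly factor Ndufaf3 at 70.1 ± 9.41 and the restricted isoforms, from Cox6a2 at 52.3 ± 3.71 to Cox7a1 at 2.62 ± 0.133, while Cox6b2, Cox7b2 and Cox8c were listed at 0 in both libraries. Cox8c, a testis form, was listed at 0 in every library of both tables.

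RefSeq start sites of build GRCm38.p6 gave windows of 300 bases (250 before the start and 50 after it) for 74 of the 91 members, and 4 motifs known from promoters of respiratory genes were searched on both strands. The NRF1 palindrome, spelled out in capitals in Uqcrc1 below, occurred in 6 windows (8.11%, against 0.977% of all 27025 promoters), AAGATGGC of YY1 in 10 (13.5% against 2.88%), TNAAGGTCA of ERRA in 3 (4.05% against 1.26%) and CCGGAAGT of the ETS factor GABPA in 5 (6.76% against 4%). In all, 24 windows held any of the 4 and 0 held more than 1 kind. TATAAA, added after the sequences were seen, was in 7 member windows (9.46% against 14.2%). The windows below show 2 NRF1 matches, 1 YY1 match, and the starts of 2 muscle-type isoforms with none of the 4 motifs, Cox7a1 and Cox8b. The match in capitals is NRF1 in Uqcrc1 (chr9:108936398-108936697, plus strand) and Cox6a1 (chr5:115348909-115349208, minus strand), YY1 in Ndufc1 (chr3:51408906-51409205, minus strand) and TATAAA in Cox8b (chr7:140900397-140900696, minus strand), where it lies just after the annotated start. Cox7a1 (chr7:30183921-30184220, plus strand) has none in capitals. All are printed 5′ to 3′ on the strand of the gene, and a match is a description of letters only.
Uqcrc1: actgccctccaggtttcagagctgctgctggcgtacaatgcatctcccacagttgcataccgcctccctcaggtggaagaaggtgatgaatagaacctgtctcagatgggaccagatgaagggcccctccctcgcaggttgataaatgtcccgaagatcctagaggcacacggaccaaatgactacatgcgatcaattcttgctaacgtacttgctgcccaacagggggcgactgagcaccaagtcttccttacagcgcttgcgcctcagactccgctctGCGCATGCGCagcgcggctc
Cox6a1: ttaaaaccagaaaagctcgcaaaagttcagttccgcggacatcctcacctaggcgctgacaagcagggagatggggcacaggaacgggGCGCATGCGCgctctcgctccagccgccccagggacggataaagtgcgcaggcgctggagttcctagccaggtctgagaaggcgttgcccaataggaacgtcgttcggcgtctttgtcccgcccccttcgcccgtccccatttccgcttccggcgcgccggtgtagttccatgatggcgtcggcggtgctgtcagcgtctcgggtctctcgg
Ndufc1: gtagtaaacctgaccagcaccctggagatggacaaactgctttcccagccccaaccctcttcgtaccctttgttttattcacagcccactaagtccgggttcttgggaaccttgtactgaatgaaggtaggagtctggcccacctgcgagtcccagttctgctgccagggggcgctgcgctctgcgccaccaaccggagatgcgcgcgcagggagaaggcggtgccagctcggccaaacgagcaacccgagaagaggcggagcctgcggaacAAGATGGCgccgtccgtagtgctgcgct
Cox7a1: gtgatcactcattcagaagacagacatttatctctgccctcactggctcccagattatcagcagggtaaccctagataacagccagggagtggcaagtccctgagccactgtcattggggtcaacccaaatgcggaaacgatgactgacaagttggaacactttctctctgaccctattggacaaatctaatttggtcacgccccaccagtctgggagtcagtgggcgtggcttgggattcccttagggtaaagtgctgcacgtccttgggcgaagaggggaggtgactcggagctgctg
Cox8b: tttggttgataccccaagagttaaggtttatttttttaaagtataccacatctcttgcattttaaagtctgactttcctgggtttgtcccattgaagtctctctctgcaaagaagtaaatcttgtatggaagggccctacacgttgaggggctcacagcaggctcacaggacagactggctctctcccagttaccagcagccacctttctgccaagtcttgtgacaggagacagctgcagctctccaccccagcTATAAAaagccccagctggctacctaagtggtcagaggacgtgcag

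The members together took 0.848 and 0.859% of the summed signal of all genes in the 2 H3.3 wild-type libraries. The share was 0.962 and 0.971% in H3.3K36M cells and 0.961 and 0.965% in H3.1K36M cells, so neither mutant line overlapped wild type. HMT siRNA libraries had 0.843 to 0.873% and control siRNA libraries 0.874 to 0.939%. Tumors stood above every cultured library, at 1.13 to 1.47%, with tumor 6 the lowest.

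**Figure D1:**
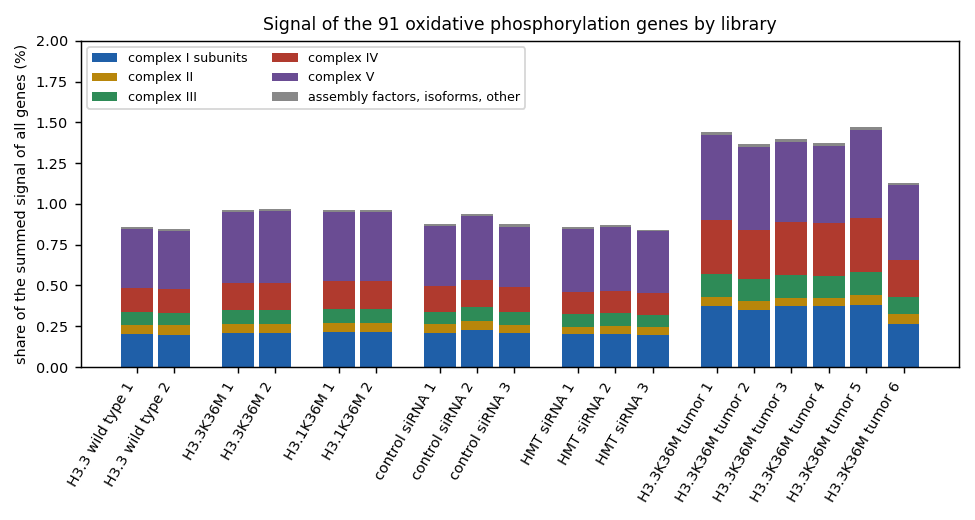
Share of the summed signal of all genes (%, vertical axis) taken by the 91 members in each of the 18 libraries, stacked by complex. The 6 tumors reach 1.13 to 1.47% and the cultured libraries 0.843 to 0.971%.

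H3.3K36M against H3.3 wild-type cells gave a split picture: the catalytic core of ATP synthase and most subunits of complex III that changed were higher, while complex I divided evenly. Atp5b read 28937 and 28173 in wild-type and 39257 and 39745 in H3.3K36M libraries, a log2 fold change of 0.47 ± 0.04 (SE). Atp5a1, the partner alpha subunit, read 15358 and 14956 against 20493 and 20841 (0.45 ± 0.04). Together these 2 genes took 0.173 and 0.176% of all signal in wild-type and 0.243 and 0.248% in mutant libraries, so the groups did not overlap. Their limma p-values, adjusted over all genes by the Benjamini-Hochberg method (BH), were 1.23e-09 and 2.21e-09. Fold changes throughout are differences of log2(value + 1), a scale on which low genes appear to change less than they do.

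By count, 27 of the 85 members tested were higher and 18 lower at a limma BH-adjusted p under 0.05, against 37.5% higher and 33.3% lower of all 13186 genes tested. The members' median was 0.05 and that of all genes 0.02, so neither the counts nor the median put the group as a whole apart from the background. The calls were spread over the complexes as follows. Complex IV had 5 higher and 0 lower of 12 widespread subunits, complex III 5 and 1 of 9, complex V 5 and 1 of 15, and complex I 11 and 11 of 36. Complex II had 0 and 2 of 4, both membrane anchors: Sdhc fell from 2732 and 2699 to 2250.4 and 2387 and Sdhd from 2368 and 2329 to 1985 and 2152, whereas catalytic Sdha and Sdhb had log2 fold changes of 0.04 ± 0.04 and -0.02 ± 0.06.

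In complex V the ring gene Atp5g1 rose from 2396 and 2356 to 3343 and 3264, a log2 fold change of 0.48 ± 0.06. The other ring genes, which encode the same mature protein, had 0.08 ± 0.04 (Atp5g2) and -0.03 ± 0.05 (Atp5g3), neither past the threshold. Atp5d of the central stalk rose by 0.39 ± 0.07, and Atp5e, its small neighbour, was the only complex V subunit called lower as deposited, from 2509 and 2528 to 1887 and 1914 (-0.41 ± 0.06). Groups did not overlap in Atp5g1, Atp5d or Atp5e. With the trend on transcript length removed (described with the HMT siRNA comparison), complex V had 5 higher and 6 lower and complex I 9 and 13, while complexes II, III and IV kept their counts.

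Complex III showed the same kind of exception. Cyc1, the heme-bearing cytochrome c1, rose from 2265 and 2240.4 to 2945 and 2666 (0.31 ± 0.05), the core protein Uqcrc1 rose by 0.26 ± 0.05 and the Rieske iron-sulfur protein Uqcrfs1 by 0.25 ± 0.05. Uqcrh, the hinge protein that helps cytochrome c1 and cytochrome c meet, fell from 2731 and 2589.7 to 1857 and 2236 (-0.38 ± 0.07). Core protein Uqcrc2 had -0.05 ± 0.06 and did not pass.

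Within complex I, Ndufv1, which binds NADH, rose by 0.33 ± 0.05 and the accessory subunit Ndufa7 by 0.36 ± 0.07. Ndufs1, the large iron-sulfur subunit beside it, fell from 2732 and 2698 to 2329 and 2297 (-0.23 ± 0.04). Ndufs3, at the junction of the arms, had -0.25 ± 0.05 and was lower, and Ndufb3 of the membrane arm read 982 and 966 against 727 and 723 (-0.43 ± 0.06). Ndufaf3, which helps build the junction, was low throughout, at 94.3 and 114 in wild-type and 71.9 and 60.3 in mutant cells (-0.65 ± 0.15, limma BH-adjusted p = 0.000756).

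In complex IV, Cox8a read 4155 and 4217 against 5625 and 5553 (0.42 ± 0.05) and Cox5a 2423 and 2231 against 2703 and 2985 (0.29 ± 0.06), both higher in the mutant. The largest fold of the 85 tested members belonged to Cox6a2, the heart and skeletal muscle form of subunit 6a: 33.8 and 37.3 in wild type against 134 and 109 in H3.3K36M cells, a log2 fold change of 1.74 ± 0.18 with a limma BH-adjusted p of 7.96e-08. The summed skeletal muscle markers were 196 and 212 in wild-type and 332 and 360.2 in H3.3K36M libraries of that table, and their part in the Cox6a2 difference was not tested. Per kilobase, widespread Cox6a1 made up 99.1% of the pair in wild-type and 97.1% in H3.3K36M cells. Cox4nb, which is no respiratory subunit, had the largest fall of the tested members, from 2154 and 2166 to 1349 and 1257 (-0.73 ± 0.06).

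**Figure D2:**
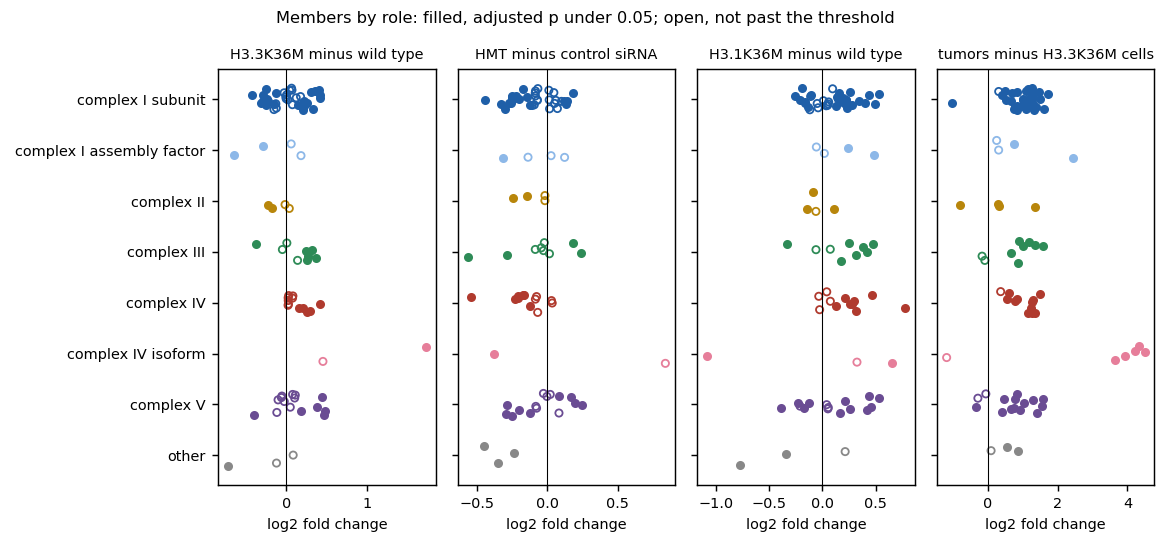
log2 fold changes (horizontal axis) of the tested members in 4 comparisons, 1 point per gene, by role; filled points passed a limma BH-adjusted p of 0.05. Tumor points lie mostly right of 0, with 76 of 89 higher, and cultured comparisons lie on both sides of 0.

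HMT siRNA against control siRNA in parental cells lowered more members than it raised: 10 of 85 were higher and 37 lower by limma with BH adjustment, against 32.6% higher and 32.8% lower of all 12634 genes tested, and the median was -0.09 against 0.00. Complex IV had 0 higher and 7 lower of 12, complex I 4 and 16 of 36, complex V 4 and 5 of 15, complex III 2 and 2 of 9, and complex II 0 and 2 of 4. Complex IV took 0.135 to 0.140% of all signal with HMT siRNA and 0.153 to 0.168% with control siRNA, with no overlap.

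Cox7a2l, known as a factor that joins complexes III and IV into supercomplexes, read 3784, 4098 and 3835 with HMT siRNA and 5535, 5849 and 5726 with control siRNA (-0.55 ± 0.04, limma BH-adjusted p = 1.82e-10). Uqcrh read 2043, 2151 and 2011 against 2889.8, 3194 and 3139 (-0.57 ± 0.06). Both genes sat below every control library in all 3 HMT siRNA libraries. Ndufb3 fell as well, from 906, 985 and 872 to 673, 699.8 and 650.1 (-0.45 ± 0.05), and low Atp5s from 176, 157 and 202 to 144, 131 and 115 (-0.46 ± 0.11). Cox6a2 read 54.2, 47.0 and 47.5 against 66.8, 61.5 and 65.7 (-0.38 ± 0.15, limma BH-adjusted p = 0.0314), lower in each knockdown library, and lost the call with the length trend removed.

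The highest members were Atp5g1 (0.24 ± 0.05), Cyc1 (0.24 ± 0.04), Atp5b (0.20 ± 0.03) and Ndufb8, an accessory subunit of the complex I membrane arm (0.19 ± 0.05). Atp5b read 33939, 34131 and 33639 with HMT siRNA and 29391, 30427 and 28818 with control siRNA, groups that did not overlap. Atp5a1 passed with a small 0.08 ± 0.03. The core of ATP synthase and cytochrome c1 were thus above their controls in both the mutant line and the knockdown. The widespread complex IV subunits that passed were above in the former (5) and below in the latter (7), with only Cox7b and Cox7c in both sets.

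The members are short genes, with a median transcript length of 861 nt (360 to 4942 nt) against 2566.5 nt over all genes, and short genes as a class were lower with HMT siRNA. Of the 146 other genes up to 600 nt, 38.4% were lower and 10.3% higher, beside 13 lower and 0 higher of the 20 members of that length. With the trend on length removed from each library, an alternative chosen after seeing the data, 19 members were higher and 33 lower, against 34.3% and 33.2% of all genes; with length taken over all coding transcripts, the first definition tried, they were 12 and 36 (33.7% and 33%). By complex, length removal gave 2 higher and 6 lower in complex IV, 6 and 4 in complex V and 8 and 15 in complex I.

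The test of the difference between the responses, H3.3K36M minus wild type less HMT minus control siRNA, gave 35 members with a more positive response to the mutant and 4 with a more positive response to the knockdown, against 27.5% and 27.4% of all 13186 genes. Complex IV had 9 and 0 of 12, complex V 9 and 1 of 15, complex III 4 and 0 of 9, complex I 11 and 1 of 36 and complex II 0 and 0 of 4. The widest gaps were Cox6a2 (2.12 ± 0.23), Ndufa7 (0.62 ± 0.10), Cox7a2l (0.57 ± 0.06) and Atp5s (0.54 ± 0.18). On the other side were Ndufaf3 (-0.51 ± 0.19), Cox4nb (-0.38 ± 0.07), Ndufs1 (-0.30 ± 0.05) and Atp5j, a peripheral stalk subunit of complex V (-0.23 ± 0.07). limma BH-adjusted p-values for these 8 ran from 3.19e-07 (Cox7a2l) to 0.0311 (Ndufaf3). Without control siRNA library 2 the 4 became 8, and with the length trend removed the 35 and 4 became 25 and 12, against 28% and 29% of all genes. With the first definition of length they became 30 and 9, against 27.6% and 28.8%. By complex, the length-removed counts were 6 and 0 for complex IV, 6 and 4 for complex V, 4 and 1 for complex III and 7 and 5 for complex I. The Ndufaf3 difference lost its call in 6 alternatives (limma BH-adjusted p up to 0.161, without wild-type library 2) and that of Atp5s in 2 (up to 0.0683).

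Set side by side over 85 members, 8 were higher in both comparisons, among them Atp5a1, Atp5b, Atp5g1, Cyc1, Ndufv1 and Uqcrc1, and 13 were lower in both, among them Atp5e, Cox4nb, Ndufb3, Ndufs3, Ndufc1 (with the YY1 match shown above), Sdhc, Sdhd and Uqcrh. Cox6a2, Cox7b, Cox7c, Ndufa6 and Ndufa7 were higher in the mutant and lower in the knockdown, and 0 members did the reverse. A further 14 were higher and 5 lower only by the mutant's test, 2 higher and 19 lower only by the knockdown's, and 19 passed neither. Over the 12634 genes tested in both, 20.8% were higher in both, 20.8% lower in both, 4.79% higher in the mutant and lower in the knockdown, 3.91% the reverse, and 14.6% passed neither. The groups of these 2 comparisons share no library.

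**Figure D3:**
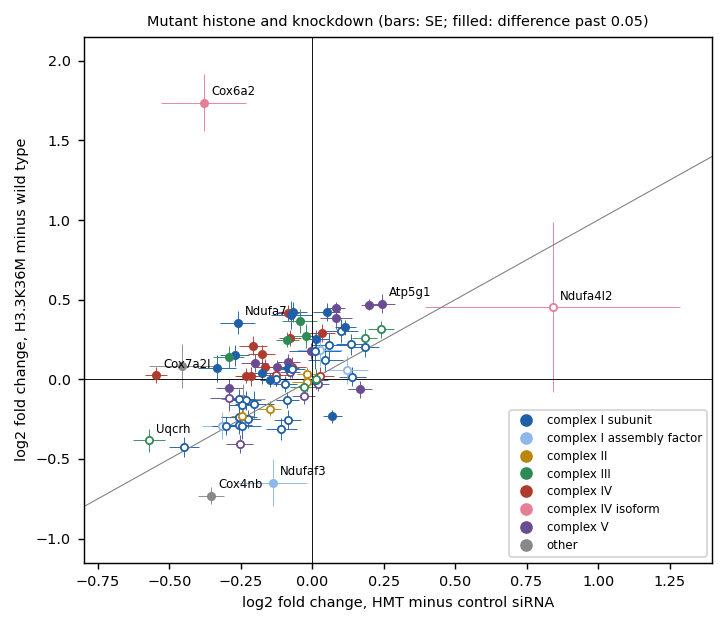
log2 fold change of each of 85 members in H3.3K36M cells (vertical axis) against that with HMT siRNA (horizontal axis), bars giving SE and the diagonal marking equal responses; filled points passed the test of the difference. Cox6a2 (1.74 ± 0.18 and -0.38 ± 0.15) lies farthest above the diagonal.

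H3.1K36M cells carry the same substitution in the replication-coupled histone H3.1. Against H3.3 wild type, 44 of 86 members were higher and 17 lower by limma with BH adjustment, beside 41.1% and 38.4% of all 13404 genes, with a median of 0.13 against 0.02. Complex IV had 8 higher and 0 lower of 12, complex III 6 and 1 of 9, complex I 19 and 7 of 36, complex V 7 and 4 of 15 and complex II 1 and 2 of 4. In the xenograft table, which the authors scaled separately, Cox5a, a nuclear subunit on the matrix side of complex IV, read 3261 and 3020.4 in wild-type, 3564 and 3941 in H3.3K36M and 5249 and 5501 in H3.1K36M libraries. The wild-type difference was 0.78 ± 0.05, the largest rise of the 86 tested members, followed by Cox6a2 (0.65 ± 0.17), Atp5d (0.53 ± 0.04) and the complex I accessory subunit Ndufa12 (0.53 ± 0.05).

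Atp5b read 38936 and 38141 in wild-type and 52919 and 52714 in H3.1K36M libraries (0.45 ± 0.03), and Atp5a1 20665 and 20248 against 27679 and 27738 (0.44 ± 0.03). Ndufs1, lower in H3.3K36M cells, was higher here, at 3677 and 3653 against 4616 and 4719 (0.35 ± 0.03). The largest falls were Cox4i2 (-1.08 ± 0.47, limma BH-adjusted p = 0.0456, at 14.7 and 10.1 against 3.49 and 7.67, a few estimated reads, with the call lost in 6 alternatives; the gene met the filter through wild-type libraries alone), Cox4nb (-0.77 ± 0.04), Atp5j2 (-0.38 ± 0.04) and Atp5sl (-0.34 ± 0.08). H3.3 wild-type libraries serve both mutant comparisons, so the 2 sets of values are given side by side only.

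Tested directly, H3.1K36M minus H3.3K36M gave 43 members higher and 10 lower, against 35.4% and 32.8% of all 13404 genes, and a median of 0.11 against 0.01. This split depended on scaling: it was 31 and 17 after quantile normalisation (all genes 35.3% and 31.4%) and 25 and 22 with libraries brought to equal totals (27.4% and 40.4%). Ndufs1 read 3070.5 and 3032 in H3.3K36M and 4616 and 4719 in H3.1K36M libraries (0.61 ± 0.03), and Ndufb10 of the membrane arm 1495 and 1565 against 2252 and 2226 (0.55 ± 0.04). Ndufaf3 (0.63 ± 0.14) and Cox5a (0.52 ± 0.05) completed the 4 largest rises. Cox6a2 stood at 82.3 and 70.0, between the other lines, below 177 and 143 in H3.3K36M cells (-1.06 ± 0.17). Atp5j2 (-0.45 ± 0.04), Atp5h (-0.25 ± 0.04) and Cox7c (-0.21 ± 0.03) also fell, while Atp5b and Atp5a1 differed by 0.02 ± 0.03 and 0.02 ± 0.03 and did not pass.

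Both H3.1K36M comparisons changed with the libraries that entered the fit, and the cause was not tested. When all 12 libraries of the table, tumors included, were fitted together, the counts against wild type were 10 and 1 and those against H3.3K36M 4 and 0; at an unadjusted p under 0.05 the latter were 7 and 1. The shares over all genes then were 22.9% and 19.6%, and 9.48% and 11.5%.

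Tumors against the H3.3K36M cells they grew from showed the broadest change: 76 of 89 members were higher and 3 lower by limma with BH adjustment, against 41% and 34.2% of all 14842 genes, with a median of 1.00 against 0.14. Of the 89, 5 low isoforms met the filter on low values through tumors alone; without them 71 of 84 were higher and 3 lower, with a median of 0.88. Without tumor 6 the members were 80 and 6. In 44 members the rise was at least 2-fold, as in 26.5% of all genes. All 6 tumors lay above both cell libraries in 76 members and below in 3, against 42.2% and 35.8% of all genes. In bulk samples, fewer cells of a type and less RNA per cell cannot be told apart. The median over all genes was 0.14 as deposited, -0.08 after quantile normalisation and -0.05 with equal totals, and the members' counts were 76 and 3, 76 and 5, and 71 and 5. The shares of all genes were 34.6% and 39.8% after quantile normalisation and 35.7% and 38.7% with equal totals.

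Complex I had 34 higher and 1 lower of 36, complex IV 11 and 0 of 12, complex V 12 and 1 of 15, complex III 7 and 0 of 9 and complex II 3 and 1 of 4. Cox4i1 read 9473 and 8814 in cells and a lowest value of 14402, a median of 23675 and a highest of 26572 in tumors (1.29 ± 0.21, limma BH-adjusted p = 0.000439). Uqcrh read 2448 and 2952 in cells, with a lowest value of 6295, a median of 8173 and a highest of 9758 in tumors (1.60 ± 0.16). Sdhb, the iron-sulfur subunit of complex II, read 2573 and 2842, with a lowest value of 5786, a median of 7242 and a highest of 7438 (1.36 ± 0.11). In each of the 3 genes every tumor was above both cell libraries, and tumor 6 was the lowest tumor.

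The 3 members called lower were Ndufs1, Sdha and Atp5a1, each among the largest subunits of its complex. Ndufs1 read 3070.5 and 3032 in cells, with a lowest value of 1355, a median of 1460.0 and a highest of 1879 in tumors (-1.03 ± 0.13). Sdha, the flavoprotein of complex II, read 9964 and 9564, with a lowest value of 5144, a median of 5457 and a highest of 6923 (-0.80 ± 0.12). Atp5a1 read 27017 and 27509.5, with a lowest value of 19259, a median of 21787 and a highest of 22970.1 (-0.34 ± 0.10). All 6 tumors were below both cell libraries in all 3. The Atp5a1 call was lost when either cell library was left out (limma BH-adjusted p = 0.0673 and 0.0866). Atp5b (-0.05 ± 0.11), Uqcrc2 (-0.16 ± 0.11) and Uqcrfs1 (-0.08 ± 0.08) did not pass.

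The tumor fold changes moved with transcript length, in members and in other genes. Across the 89 members the log2 fold change had a Pearson r of -0.46 with log2 length and a Spearman rho of -0.53, a description over genes that share the same 8 libraries. Members up to 600 nt had a median of 1.25 and the 226 other genes of that length 1.42. From 600 to 1000 nt the medians were 1.17 and 1.2, from 1000 to 1500 nt 1.07 and 0.82, from 1500 to 2000 nt 0.50 and 0.55 and from 2000 to 3000 nt 0.53 and 0.21, the last over 8 members. From 3000 to 5000 nt they were 0.32, over 3 members, and -0.25. Other genes over 5000 nt had a median of -0.84. Member and other-gene medians were thus close up to 1000 nt and apart above 2000 nt.

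With that trend on length removed from each library, 24 members were higher and 31 lower, against 37.2% and 35.1% of all genes, and the members' median was -0.05. Of the 76 higher members, 23 stayed higher and 20 became lower, while Ndufs1, Sdha and Atp5a1 were lower under either reckoning. Length here was that of the principal transcripts of a gene in the annotation. The first definition tried, the median over all coding transcripts, counted fragments (members' median 680 nt) and left 44 higher and 11 lower (37.9% and 34.9% of all genes), with 44 of the 76 still higher; both were chosen after the data were seen, and the second after the result of the first. The rise of the members as a group in tumors therefore depends on whether and how length is allowed for, and what makes short genes read higher in tumors was not tested.

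**Figure D4:**
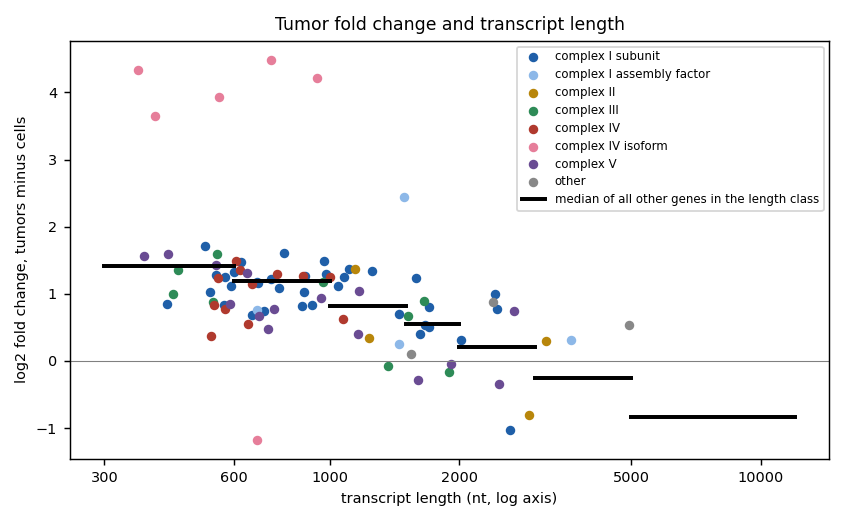
log2 fold change in tumors (vertical axis) against transcript length (nt, log axis) for 89 members, coloured by role; black lines give the median of all other genes in a length class; the rightmost line is the open class over 5000 nt. Both fall with length, from 1.42 in other genes up to 600 nt to -0.84 above 5000 nt, and 5 restricted isoforms, which met the filter through tumors alone, lie above the lines.

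By complex, complex V had 1 higher and 8 lower of 15 once length was removed, complex IV 1 and 5 of 12, complex III 1 and 4 of 9, complex I 11 and 8 of 36 and complex II 2 and 2 of 4. The assembly factor Ndufaf3 kept a large rise: it read 94.8 and 79.6 in cells, with a lowest value of 366, a median of 512 and a highest of 548 in tumors (2.44 ± 0.18, and 1.79 with length removed). Sdhb had 0.50 and Uqcrc1 0.33 with length removed, and both still passed. Cox4i1 and Uqcrh had 0.11 and 0.22 and no longer passed (limma BH-adjusted p = 0.329 and 0.0896). Cox5a and Ndufa4, a subunit now placed in complex IV, had log2 fold changes of -0.73 and -1.03 with length removed, against 0.55 ± 0.10 and 0.37 ± 0.20 before, the latter not past the threshold.

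Of the 8 isoforms restricted to certain tissues, 6 were tested. Cox4i2, Ndufa4l2, Cox7a1, Cox6b2 and Cox8b met the filter on low values through the tumors alone, where they were high, so their calls are a description of their levels. Cox4i2, a form of subunit 4 known from lung and induced by low oxygen, read 5.78 and 4.75 in cells, with a lowest value of 73.4, a median of 138 and a highest of 279.6 in tumors (4.49 ± 0.49). Ndufa4l2, an HIF-induced relative of Ndufa4, read 12.7 and 9.49, with a lowest value of 157, a median of 203 and a highest of 402 (4.22 ± 0.35). Cox7a1, the muscle form of subunit 7a, read 4.05 and 5.70, with a lowest value of 44.7, a median of 75.1 and a highest of 105 (3.65 ± 0.33). The groups did not overlap, and with length removed the log2 fold changes were 3.28, 3.17 and 2.04.

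Cox6b2, known as the testis form of subunit 6b, read 0.578 and 1.90 in cells and a lowest value of 20.6, a median of 32.2 and a highest of 40.2 in tumors; no fold is given, since these cell values are a few estimated reads at most. Cox8b, the muscle form of subunit 8, was listed at 0 in both cell libraries, and read 7.38, 15.4, 12.2, 7.08, 59.2 and 77.3 in tumors 1 to 6. Its call was lost with length removed (limma BH-adjusted p = 0.0509, against 0.00203). Cox6a2 read 177 and 143 in cells and 51.0, 51.5, 39.4, 56.7, 80.8 and 249 in the tumors (-1.17 ± 0.60, not past the threshold), so the level was below both cell libraries in tumors 1 to 5 and above them in tumor 6. With length removed Cox6a2 was called lower (-2.42, limma BH-adjusted p = 0.0144).

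Host tissue markers also differed between cells and tumors. The summed skeletal muscle markers, all 9 present, rose from a median of 457 in cells to a range of 1159 to 26737, and Ckm, muscle creatine kinase, read 58.7 to 99.5 in tumors 1 to 4, 1209.5 in tumor 5 and 3705 in tumor 6. Tumors 5 and 6 were the libraries with the highest Cox8b and Cox6a2. The other restricted isoforms tested went the other way: Cox7a1, the muscle form of subunit 7a, Cox4i2, Ndufa4l2 and Cox6b2 were all lowest in tumor 6. All 8 macrophage markers found in the table summed to 111934 to 157742 against 511 in cells, all 7 endothelial markers to 9790.1 to 29240.5 against 233, all 5 red cell markers to 7664 to 19469 against 861, all 6 fat markers to 604 to 4168 against 19.6 and all 4 keratinocyte markers to 160.3 to 27618 against 160.1. The 5 pericyte markers summed to 1529 to 2247 against 4588 in cells, and the 7 mesenchymal markers to 256045 to 299145 against 698750. The pericyte sum does not stand for each marker. In H3.3K36M cells 3 of the 5 had a mean of at least 10 and Higd1b was listed at 0, while in tumors all 5 reached that mean. Of 4 cardiac and 4 germ cell markers, the sums were at most 80.8 and 16.1 in tumors. The part of host cells in the members' rise was not tested. Without tumors 5 and 6, 80 members were higher and 6 lower (44.2% and 38% of all genes), and all 76 higher members stayed higher.

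**Figure D5:**
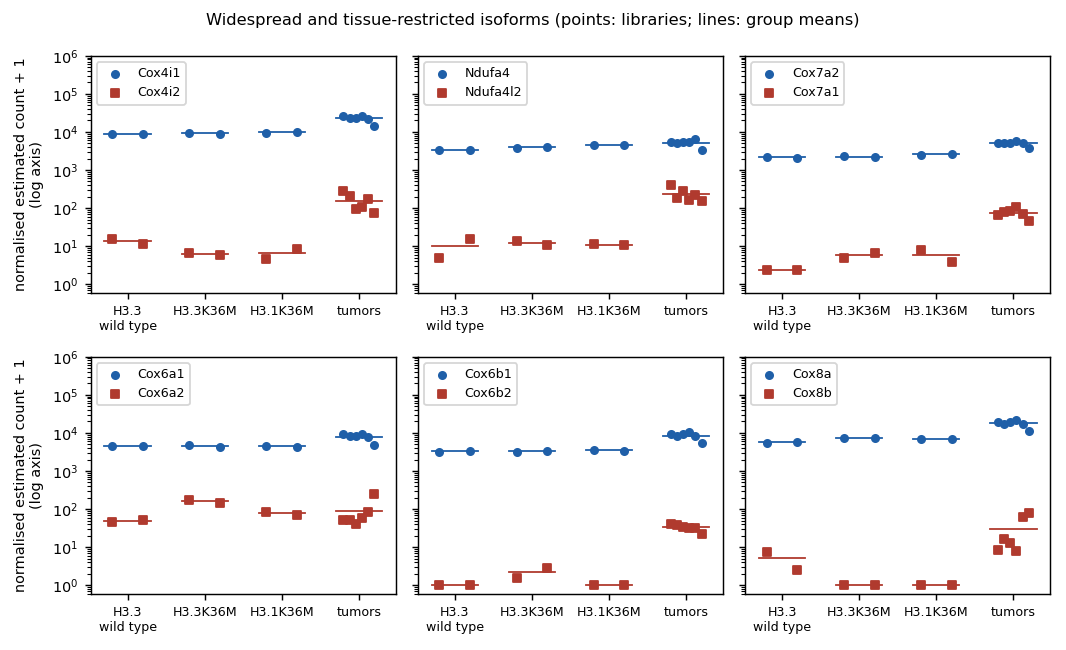
Signal + 1 (log axis) of widespread forms (circles) and restricted forms (squares) of 6 subunits in the cultured and tumor libraries, 1 point per library with lines at group means. Cox4i2, Ndufa4l2, Cox7a1, Cox6b2 and Cox8b lie higher in all 6 tumors than in H3.3K36M cells, and Cox6a2 does so in tumor 6 only.

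The restricted forms stayed a minor part of their subunit. Per kilobase, Cox4i2 made up 0.687% of Cox4i1 and Cox4i2 together in tumors (mean of 6 tumors, range 0.400 to 1.09%), Cox7a1 2.39% of its pair (1.95 to 2.92%), Ndufa4l2 2.52% (1.74 to 4.03%), Cox6b2 0.425% (0.341 to 0.485%) and Cox8b 0.315% (0.0493 to 1.01%). Cox6a2 made up 0.396 to 4.21% in tumors (mean 1.16%), the highest in tumor 6, against a mean of 2.86% in H3.3K36M cells. Among the ring genes of complex V, Atp5g2 took 49.7% in H3.3 wild-type cells, 50.5% in H3.3K36M cells and 56.3% in tumors. Atp5g3 took 45.6%, 43.2% and 37.1%, and Atp5g1 4.72%, 6.33% and 6.60%. The size of these shares depends on the lengths used, 2675.5 nt for Atp5g1 against 586 nt for Atp5g2 and 718.5 nt for Atp5g3.

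Other nuclear genes for mitochondrial functions, from lists drawn up with earlier results of these data known, give the setting. Of 27 assembly factors outside the name rule, 3 were higher and 8 lower in H3.3K36M cells, 2 and 10 with HMT siRNA, 12 and 4 in H3.1K36M against wild-type cells and 12 and 6 in tumors, 10 and 10 with length removed. Surf1, which assembles complex IV, fell in H3.3K36M cells (-0.80 ± 0.07), and Lrpprc, which stabilises mitochondrial messengers, rose (0.41 ± 0.04). Of 57 mitochondrial ribosomal protein genes, 23 were higher and 8 lower in H3.3K36M cells, and 21 and 9 with HMT siRNA, where the members had 10 and 37. They were 40 and 6 in H3.1K36M cells and 45 and 0 in tumors, the last becoming 18 and 14 with length removed.

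Of 24 import genes, 10 were higher and 2 lower in H3.3K36M cells, 10 and 3 with HMT siRNA, 20 and 1 in H3.1K36M cells and 15 and 5 in tumors, 8 and 11 with length removed. Of 23 tested genes for mobile electron carriers, nucleotide carriers and pores, 12 were higher and 4 lower in H3.3K36M cells, 7 and 7 with HMT siRNA, 15 and 2 in H3.1K36M cells and 11 and 8 in tumors, 4 and 14 with length removed. Cycs, cytochrome c itself, rose in each: 0.43 ± 0.05 in H3.3K36M cells, 0.55 ± 0.04 with HMT siRNA, 0.89 ± 0.04 in H3.1K36M cells and 0.64 ± 0.12 in tumors. The background shares of all genes are those given at each comparison.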

How the data were processed

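RNA sequencing libraries (TruSeq, Trizol-extracted RNA, per the labels' protocols) came, per the submitters' processing notes, from a workflow that names Bowtie 1.0.0, RSEM 1.2.12 and mm9. Values deposited by the authors are signal, that is estimated counts divided by a factor per library, in tables of 20325 genes scaled separately; comparisons stay within 1 table. The values came in steps of 0.01 of an estimated read, which gave depths of 13993307 to 56041798 estimated reads, but are not whole counts (tolerance 0.005), so the count test planned for raw or expected counts was not used.

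Each comparison was fitted with limma 3.58.1 (R 4.3.3) on log2(value + 1), a pseudocount of 1, using eBayes (trend and robust both on). Tests were two-sided and adjusted by Benjamini-Hochberg over the genes that reached 10 in at least the number of libraries of the smaller group, and a threshold of 0.05. Fits used 10 libraries (siRNA table), 6 cultured libraries, or 8 libraries (tumors and H3.3K36M cells). The step was tested on simulated data. Other work used Python 3.11.15, matplotlib 3.10.9, scipy 1.17.1, numpy 2.4.6 and pandas 2.3.3.

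Members, lists and tests were chosen with earlier results of these data known. Named members were fixed anchor subunits, isoform groups and the 4 largest rises and falls past the threshold in each comparison; others named were chosen after their values were seen. Transcript lengths, names and roles were looked up in GENCODE M21 (GRCm38), for 20097 symbols and all 91 members; lengths are the median of transcripts tagged APPRIS principal. Promoters are RefSeq sequences of GRCm38.p6. No coordinates were taken over to or from mm9. Length-corrected fits subtract, per library, a lowess trend (span 0.2) of log2(value + 1) minus the gene mean on log2 length. Alternatives were other scalings, pseudocounts (0.5 and 10), filters, fits, leaving out each library, and the replicate block. Cultured H3 groups hold 2 libraries each, which limits their precision.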

Additional observations from a re-analysis of the deposited data

Results flagged for a closer look

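Of 44 sets of 6 tumor values examined, 17 held a library that stood apart from the other 5 by Dixon's criterion. Chance flags about 1 of 20 independent sets, but these share the same 6 libraries and some contain others. Their number cannot be set against that rate. In 16 of the 17 the library was tumor 6. That library was lowest for Ndufa9 (2355, the nearest other at 3249), Ndufb8 (4344), Uqcrc1 (6868), Cyc1 (4578), Cox4i1 (14402), Cox5b (4967), Cox6a1 (4752) and Atp5g1 (4643). It was also lowest for the share of all signal taken by all members (1.13%), complex I subunits (0.266%), complex I assembly factors (0.00616%), complex III (0.108%) and complex IV (0.223%). It was highest for Ndufs1 (1879), Sdha (6923) and Cox6a2 (248.9, the nearest other at 80.8). Tumor 5 was highest for Sdhd (3809, the nearest other at 3454). Tumor 6 was also the library with the smallest shift of short genes: other genes up to 600 nt had a median log2 difference from cells of 0.77 there and 1.43 to 1.65 in tumors 1 to 5, and the members 0.45 against 0.99 to 1.22. It had the highest muscle markers as well; the part of either in these values was not tested.

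The response to H3.3K36M differed from that to HMT siRNA, by the test of the difference itself, for Cox6a2 (2.12 on the log2 scale), Ndufa7 (0.62), Cox7a2l (0.57) and Atp5s (0.54), which were relatively higher with the mutant, and for Ndufaf3 (-0.51), Cox4nb (-0.38), Ndufs1 (-0.30) and Atp5j (-0.23), which were relatively higher with the knockdown. The Ndufaf3 difference lost the threshold in 6 alternatives and that of Atp5s in 2. Cox6a2 was higher in the mutant (1.74 ± 0.18) and lower in the knockdown (-0.38 ± 0.15). Ndufs1 was lower in the mutant (-0.23 ± 0.04) and did not pass in the knockdown (0.07 ± 0.03).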

How the results depend on the processing

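Counts of members (higher, then lower) moved by over 1.5 times only in the settings named in this section, among those run. Removal of the length trend, chosen after seeing the data, changed the HMT siRNA count of higher members from 10 to 19 and the 4 members lower in the difference of responses to 12 (9 with length over all coding transcripts). In tumors it changed 76 and 3 to 24 and 31 (44 and 11 over all coding transcripts). Without tumors 5 and 6, also chosen after seeing the data, 6 tumor members were lower. With the length trend removed too, the counts were 31 and 33 (40.5% and 38.4% of all genes). Over all coding transcripts they were 58 and 15 (41.7% and 38.4%). With length removed, H3.3K36M had 25 and 25 (38.4% and 34.2% of all genes). H3.1K36M then had 37 and 23 against wild type (40.6% and 39.1%) and 31 and 15 against H3.3K36M (32.8% and 35.2%). Over all coding transcripts H3.3K36M had 26 and 22 (37.9% and 34%) and HMT siRNA 12 and 36. H3.1K36M had 40 and 20 against wild type (40.5% and 39.1%) and 32 and 14 against H3.3K36M (32.7% and 35.3%). The second definition of length replaced the first because the first averaged in fragments, and the tumor count depends on that choice. Quantile normalisation gave 17 lower in H3.1K36M against H3.3K36M cells and 5 in tumors; equal totals gave 25 and 22 in the former and 5 lower in tumors. The fit of all 12 libraries of the xenograft table gave 10 and 1 for H3.1K36M against wild type and 4 and 0 against H3.3K36M; the cause was not tested.

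Leaving out each library gave 22 to 26 higher and 13 to 18 lower for H3.3K36M, 7 to 14 and 35 to 41 for HMT siRNA, 25 to 38 and 3 to 8 for the difference, 38 to 43 and 13 to 17 for H3.1K36M against wild type, 35 to 44 and 7 to 9 against H3.3K36M, and 66 to 80 and 2 to 6 in tumors, where the 6 came without tumor 6. The 8 in the difference came without control siRNA library 2. A lone remaining library of a group was taken to vary like the others. Of 816 values under alternatives, covering 47 results among the largest rises and falls, 789 kept direction and side of the threshold. The other 27 lost the threshold with the direction kept. Results of other members, anchor subunits included, were not counted there. With length removed, 20 members called higher in tumors became lower, Cox5a among them.

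Replicate numbers do not mark a shared source in the labels. Deviations of same-numbered libraries correlated at 0.18, 0.057 and 0.16 in the siRNA groups and between -0.11 and 0.05 elsewhere. With the replicate block the counts were 29 and 20, 10 and 43, 37 and 7, 44 and 17, 43 and 10, and 79 and 6, in the order of the comparisons above, so the members lower went from 4 to 7 in the difference and from 3 to 6 in tumors. Depth limits the restricted isoforms, where 1 estimated read is worth 0.438 to 1.73 signal units.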

Other observations

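Genes of the tricarboxylic acid cycle and pyruvate dehydrogenase, which feed electrons to the respiratory chain, had 2 of 19 higher and 7 lower in tumors (2 and 13 with length removed). In H3.1K36M cells 13 were higher and 4 lower against wild type, in H3.3K36M cells 5 and 7, and with HMT siRNA 6 and 6. Citrate synthase (Cs) rose in H3.3K36M (0.40 ± 0.04) and H3.1K36M cells (0.65 ± 0.03), and Pcx, which makes oxaloacetate from pyruvate, fell steeply in both (-2.53 ± 0.05 and -2.47 ± 0.05). Of 23 tested glycolysis and hypoxia-response genes, 12 were higher and 8 lower in H3.3K36M cells and 13 and 6 with HMT siRNA. In tumors 18 of 24 were higher and 3 lower, with a median of 1.2, and 14 and 2 with length removed (median 0.71). Slc2a1, the glucose transporter, rose by 2.66 ± 0.39 there, Ankrd37 by 3.60 ± 0.42, Bnip3 by 2.29 ± 0.40 and Vegfa by 1.18 ± 0.24, all known targets of the hypoxia-inducible factors. The part of these factors in these rises, or in those of Cox4i2 and Ndufa4l2, was not tested.

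Of 19 regulators of mitochondrial biogenesis, 9 were higher and 4 lower in H3.3K36M cells, 10 and 4 with HMT siRNA, 9 and 4 in H3.1K36M against wild-type cells and 4 and 9 in tumors (2 and 5 with length removed). The coactivator Ppargc1a fell with HMT siRNA (-1.70 ± 0.27), in H3.1K36M cells (-1.90 ± 0.40) and in tumors (-1.73 ± 0.41), and its value in H3.3K36M cells was 0.23 ± 0.31. Its relative Pprc1 rose in the first 2 (0.58 ± 0.04 and 0.79 ± 0.04) and in H3.3K36M cells (0.60 ± 0.05), and fell in tumors (-0.40 ± 0.10). Gabpa, the ETS subunit of nuclear respiratory factor 2, fell in tumors (-2.17 ± 0.20) and Esrra rose there (1.10 ± 0.14). Tumor values of single genes from these lists, here and above, are without the length trend removed.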
